A study of Mus musculus with 15 samples.

Results

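The genes examined were Ccl17, Ccl22 and Ccl24, which encode 3 chemokines of type 2 immune responses. They were taken by symbol from the count table, and all 3 of them were found among its 55385 genes. Bone marrow-derived macrophages (BMDMs) came from BALB/c mice of 6 wk, 2 of them STAT5fl/fl and 3 of them STAT5cKO. Both genotypes carry floxed Stat5 alleles. In STAT5cKO mice the alleles are deleted by Csf1r-iCre, a Cre recombinase driven by the promoter of the macrophage growth factor receptor, which per the study is active in myeloid cells and also in some lymphocytes of the spleen. The number that opens each label was taken as the mouse, which the labels do not state in words. On that reading, BMDMs of every mouse were divided over 3 treatments of 2 h. These were DMEM without serum, rmGM-CSF (recombinant mouse granulocyte-macrophage colony-stimulating factor) at 20 ng/mL, and 4T1 CM (medium conditioned by 4T1 mouse mammary tumor cells). This gave 15 libraries in 6 groups. Per the study's methods, quality control took out another STAT5fl/fl replicate, which is not analysed here.

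CCL17 and CCL22 are ligands of the receptor CCR4 and attract T helper 2 cells and regulatory T cells. CCL24, also called eotaxin-2, is a ligand of CCR3 and attracts eosinophils. In macrophages these genes are known targets of interleukin-4 through STAT6, and GM-CSF, which signals through JAK2 and STAT5, is known to induce CCL17 by a route that includes the histone demethylase KDM6B and the transcription factor IRF4.

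Library totals lay between 16016736 and 22883108 counts. Levels are given as normalised CPM (counts scaled to the library total and divided by relative log expression factors), and a change was called at an adjusted p-value under 0.01 in edgeR's quasi-likelihood F test over 13005 tested genes. The deletion was visible in every library, since Stat5a had 637 to 918 counts in STAT5fl/fl and 0 to 3 in STAT5cKO, and Stat5b 977 to 1654 against 0 to 4. All 7 macrophage markers were expressed, and of these Lyz2 was called between the genotypes, higher in STAT5cKO under each treatment (0.60 to 0.63 on the log2 scale). All 6 markers of eosinophils, basophils and mast cells stayed at 3 counts or fewer, as did 5 of 6 lymphocyte and 5 of 8 neutrophil markers. The summed level of 5 fibroblast markers was 1 to 2.37 normalised CPM in STAT5fl/fl and 2.74 to 8.96 in STAT5cKO libraries. The 4T1 CM library of STAT5cKO mouse 115 stood farthest from the other libraries of its group, at a root mean square distance of 0.269 in log2 normalised CPM against 0.239 and 0.251 for its companions. In bulk RNA, fewer cells of a type and less RNA per cell cannot be told apart.

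Ccl22 and Ccl17 are neighbours on mouse chromosome 8 (GRCm38), and both lie on the plus strand. Ccl22 (ENSMUSG00000031779) spans 94745590 to 94751699 and Ccl17 (ENSMUSG00000031780) 94810453 to 94812036, with 58753 bp and the chemokine gene Cx3cl1 between them. Ccl24 (ENSMUSG00000004814) lies apart from them on the minus strand of chromosome 5, from 135569937 to 135573049. The counted exons sum to 514 bp for Ccl17, 2325 bp for Ccl22 and 1295 bp for Ccl24.

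The promoter windows of the 2 linked genes are shown because their levels differed between the genotypes with rmGM-CSF, and the windows can be compared for STAT motifs. Each window holds 250 bases before and 50 after the RefSeq gene start (GRCm38.p6, plus strand), at chr8:94810203-94810502 for Ccl17 and chr8:94745434-94745733 for Ccl22. Capitals mark matches to the STAT motif TTCNNNGAA and to its longer form TTCNNNNGAA, which STAT6 prefers.
Ccl17: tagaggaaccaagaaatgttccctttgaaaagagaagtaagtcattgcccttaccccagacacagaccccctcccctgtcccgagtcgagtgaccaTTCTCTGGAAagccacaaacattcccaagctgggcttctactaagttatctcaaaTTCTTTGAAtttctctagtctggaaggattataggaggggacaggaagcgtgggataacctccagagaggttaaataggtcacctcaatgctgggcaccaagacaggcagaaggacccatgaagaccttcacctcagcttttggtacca
Ccl22: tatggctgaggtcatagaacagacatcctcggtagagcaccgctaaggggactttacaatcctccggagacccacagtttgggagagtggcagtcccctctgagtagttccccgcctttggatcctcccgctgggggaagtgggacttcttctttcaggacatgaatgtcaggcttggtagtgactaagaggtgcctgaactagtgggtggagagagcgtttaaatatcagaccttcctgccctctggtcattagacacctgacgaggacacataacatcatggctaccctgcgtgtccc
The Ccl17 window held 1 match to TTCNNNGAA, at 94810354 to 94810362, 99 to 91 bases before the gene start, and 1 match to TTCNNNNGAA at 94810299 to 94810308. Of 32851 windows in the RefSeq table, 8.3% held the shorter and 6.95% the longer form on either strand, and no match of one overlaps the other here. The Ccl22 window held neither. Neither window matched the AP-1 motif TGANTCA, present in 7.81% of windows, the NF-κB consensus (4.51%) or the ETS-IRF composite motif GGAANNGAAA (2.72%). The start of the Ccl22 window's transcript lies 94 bases inside the gene as counted. A match is a description of letters, and binding was not measured.

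Ccl17 was detected almost only in STAT5fl/fl BMDMs that had received a stimulus. With DMEM both STAT5fl/fl libraries were at 0 counts, where 3 counts would be 0.134 to 0.145 CPM. With rmGM-CSF Ccl17 had 396 counts in mouse 112 and 406 in mouse 113, or 24.7 and 21.8 normalised CPM. With 4T1 CM it had 77 and 51 counts, or 3.75 and 2.63 normalised CPM. The 9 STAT5cKO libraries held 0 or 1 count each, 4 counts in all, whichever medium was given. Thus the genotypes were separated with both stimuli, while with DMEM both were at or under the floor of 3 counts.

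With rmGM-CSF the summed Ccl17 CPM was 676 times as high in STAT5fl/fl as in STAT5cKO (95% counting interval 186 to 5590), and the adjusted p-value of edgeR's quasi-likelihood test was 1.11e-14. In that comparison 9.80% of all tested genes were called, and 6.24% were lower in STAT5cKO. With 4T1 CM the ratio was 206 (36.4 to 8220, adjusted p = 3.25e-08), where 7.70% of genes were called and 3.57% were lower. The intervals cover counting error only. Ccl17 passed the low-count filter through the stimulated STAT5fl/fl libraries alone. Within STAT5fl/fl it was at least 170-fold higher with rmGM-CSF than with DMEM (adjusted p = 3.12e-14), and at least 23.4-fold higher with 4T1 CM (adjusted p = 5.58e-09), each against the floor of 3 counts per library. Between the stimuli it was lower with 4T1 CM, with a log2 change of -2.85 (SE 0.17, adjusted p = 3.94e-11). The shares of all genes called in STAT5fl/fl were 28.5% for rmGM-CSF against DMEM, 37.4% for 4T1 CM against DMEM and 30.5% between the stimuli. The interaction of genotype with rmGM-CSF was not called (adjusted p = 0.119), nor that with 4T1 CM against DMEM (0.222), although DESeq2 (6.68e-05 and 0.00565) and limma voom (8.86e-06 and 0.000489) called both. In these tests the unstimulated groups held 0 and 1 counts in all.

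**Figure D1:**
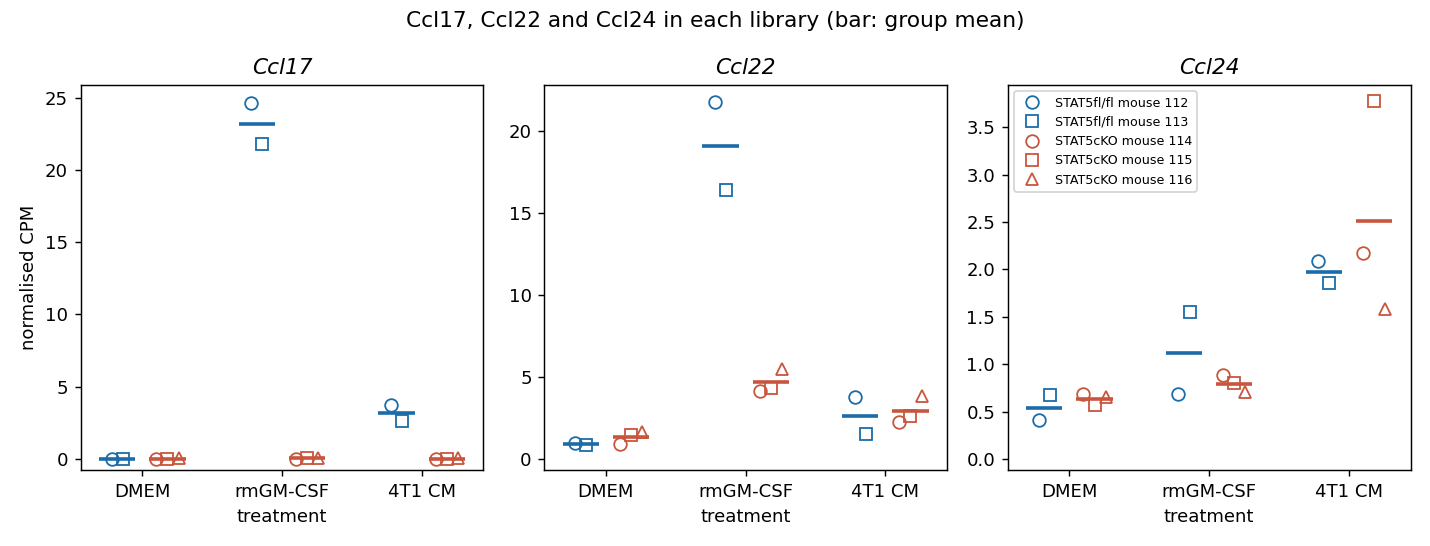
Normalised CPM of Ccl17, Ccl22 and Ccl24 in each of the 15 libraries by treatment, with symbols for mice, blue for STAT5fl/fl, red for STAT5cKO, and a bar at each group mean. The vertical scales differ between the genes. Ccl17 lies at 21.8 and 24.7 in STAT5fl/fl with rmGM-CSF and close to 0 in all STAT5cKO libraries.

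Ccl22 rose with rmGM-CSF in both genotypes, and its level there was lower in STAT5cKO. In STAT5fl/fl it had 22 and 20 counts with DMEM, 349 and 305 with rmGM-CSF, and 78 and 29 with 4T1 CM. In STAT5cKO it had 20, 34 and 40 counts with DMEM, 85, 97 and 86 with rmGM-CSF, and 48, 55 and 85 with 4T1 CM. With rmGM-CSF the libraries of the genotypes did not overlap, at 16.4 to 21.7 normalised CPM in STAT5fl/fl and 4.17 to 5.49 in STAT5cKO, whereas with DMEM and with 4T1 CM they did.

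The genotype difference of Ccl22 with rmGM-CSF was -2.04 on the log2 scale (SE 0.22, adjusted p = 3.27e-06), from a mean of 19.0 ± 3.80 normalised CPM (SD, n = 2) to 4.66 ± 0.724 (n = 3). With DMEM the difference was 0.56 (SE 0.47, 95% interval -0.44 to 1.56, adjusted p = 0.533), where 2.49% of genes were called. With 4T1 CM it was 0.13 (SE 0.33, 95% interval -0.57 to 0.82, adjusted p = 0.851). These last intervals do not contain a decrease as large as that with rmGM-CSF. The genotype effect with rmGM-CSF differed from that with DMEM by -2.60 (SE 0.51, adjusted p = 0.00417), in an interaction test that called 3.11% of genes, 2.22% of them in this direction. It also differed from that with 4T1 CM, by 2.17 (SE 0.40, adjusted p = 0.00385), where 1.47% were called and 1.32% in this direction. The first interaction lost its call without mouse 112, 113, 115 or 116 (adjusted p 0.0115 to 0.0366), and the second without 113, 114, 115 or 116 (0.0108 to 0.0268). The interaction with 4T1 CM against DMEM was -0.44 (SE 0.58, adjusted p = 0.812), with 1.27% of genes called.

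By treatment, Ccl22 was 20.5-fold higher with rmGM-CSF than with DMEM in STAT5fl/fl (log2 4.36, SE 0.32, adjusted p = 7.61e-09) and 3.37-fold higher in STAT5cKO (log2 1.75, SE 0.31, adjusted p = 0.00025). It was higher in all 5 mice, by 19.4 and 21.7 times in STAT5fl/fl and by 2.92 to 4.53 times in STAT5cKO. In the direction of a rise, 15.9% of all genes were called in STAT5fl/fl and 13.3% in STAT5cKO, where 23.5% were called either way. With 4T1 CM against DMEM the log2 change in STAT5fl/fl was 1.54 (SE 0.46, adjusted p = 0.00985), and this call rested on mouse 112, without which the adjusted p was 0.312. In STAT5cKO it was 1.10 (SE 0.33, adjusted p = 0.0106), and with the mouse as a block, a replicate pairing, the adjusted p was 0.000382. Shares of 19.2% (STAT5fl/fl) and 19.3% (STAT5cKO) of all genes were called as higher with 4T1 CM, and 37.6% either way in STAT5cKO. Against rmGM-CSF, Ccl22 with 4T1 CM was lower in STAT5fl/fl, at -2.82 (SE 0.27, adjusted p = 2.46e-07). In STAT5cKO the value was -0.66 (SE 0.27, adjusted p = 0.0527, and 0.00304 with the block), where 34.1% of genes were called.

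The group means of Ccl22 ran from 19.0 normalised CPM in STAT5fl/fl with rmGM-CSF through 4.66 in STAT5cKO with rmGM-CSF, 2.90 in STAT5cKO with 4T1 CM, 2.64 in STAT5fl/fl with 4T1 CM and 1.35 in STAT5cKO with DMEM to 0.921 in STAT5fl/fl with DMEM. Of the neighbours in this order, the first and second groups differed in the test. The libraries of the last 4 groups overlapped from each group to the next. Per kb of exon, Ccl17 stood above Ccl22 in stimulated STAT5fl/fl, at 45.2 ± 3.97 against 8.19 ± 1.64 normalised CPM per kb with rmGM-CSF and 6.20 ± 1.53 against 1.14 ± 0.699 with 4T1 CM (SD, n = 2), ratios of the means of 5.51 and 5.45. With DMEM the order was the other way, since Ccl22 was present at 0.396 ± 0.0479 normalised CPM per kb in STAT5fl/fl while Ccl17 was at 0 counts.

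Ccl24 rose with 4T1 CM in both genotypes and was called between the genotypes under no treatment. In STAT5fl/fl it had 9 and 16 counts with DMEM, 11 and 29 with rmGM-CSF, and 43 and 36 with 4T1 CM. In STAT5cKO it had 15, 13 and 16 counts with DMEM, 18, 18 and 11 with rmGM-CSF, and 46, 80 and 35 with 4T1 CM. The genotypes overlapped under every treatment, and within each genotype the 4T1 CM libraries were above all others.

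Against DMEM, 4T1 CM raised Ccl24 by 1.84 on the log2 scale in STAT5fl/fl (SE 0.47, adjusted p = 0.00373) and by 1.96 in STAT5cKO (SE 0.35, adjusted p = 0.000152), and it was 2.41 to 6.68 times as high across the 5 mice. Ccl24 passed the low-count filter only through its 4T1 CM libraries, so its calls with 4T1 CM are not separate evidence of a rise. The call in STAT5fl/fl was lost without mouse 112 (adjusted p = 0.0944) or mouse 113 (0.0219). Against rmGM-CSF, the change was 1.63 in STAT5cKO (SE 0.35, adjusted p = 0.000938, and 0.0225 without mouse 115) and 0.78 in STAT5fl/fl (SE 0.43, adjusted p = 0.158). With rmGM-CSF against DMEM the changes of 1.07 (SE 0.55, adjusted p = 0.138) and 0.33 (SE 0.46, adjusted p = 0.625) were not called, although Ccl24 was higher in all 5 mice.

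The log2 difference of Ccl24 between the genotypes was 0.22 with DMEM (SE 0.55, 95% interval -0.93 to 1.37, adjusted p = 0.865). It was -0.52 with rmGM-CSF (SE 0.48, 95% interval -1.53 to 0.50, adjusted p = 0.528) and 0.34 with 4T1 CM (SE 0.32, 95% interval -0.33 to 1.01, adjusted p = 0.527). No interaction of Ccl24 was called, with adjusted p-values of 0.634 to 0.97. Genotype differences within the 95% intervals are not excluded by these counts. The order of the group means ran from 2.51 ± 1.14 normalised CPM in STAT5cKO with 4T1 CM (SD, n = 3) and 1.97 ± 0.166 in STAT5fl/fl with 4T1 CM (n = 2) through 1.12 ± 0.615 in STAT5fl/fl and 0.796 ± 0.0902 in STAT5cKO with rmGM-CSF to 0.638 ± 0.0644 in STAT5cKO and 0.542 ± 0.187 in STAT5fl/fl with DMEM. Libraries of the first and second groups overlapped, as did those of the 2 genotypes with rmGM-CSF and with DMEM. Within a genotype the 4T1 CM libraries lay apart from those with rmGM-CSF. Those with DMEM and rmGM-CSF nearly met, at 0.674 and 0.685 normalised CPM in STAT5fl/fl and 0.689 and 0.702 in STAT5cKO.

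**Figure D2:**
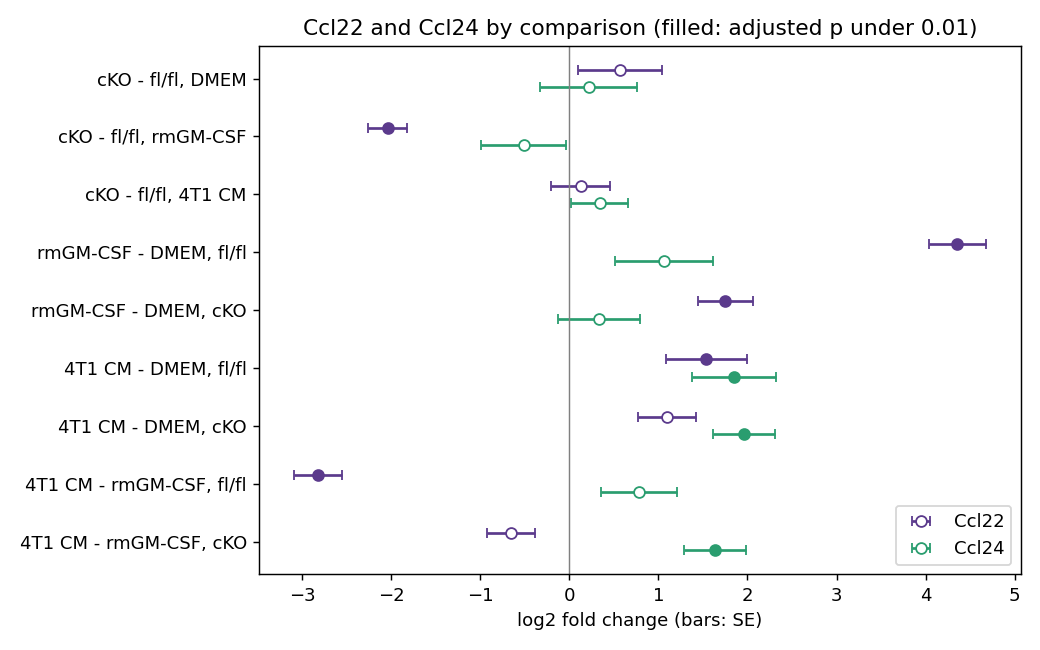
Log2 fold changes of Ccl22 and Ccl24, with SE, for the genotype within each treatment and for the treatments within each genotype, with filled points for an adjusted p-value under 0.01. The value of Ccl22 for the genotype with rmGM-CSF lies at -2.04, and those with DMEM and 4T1 CM at 0.56 and 0.13. Ccl17 is left out because its unstimulated and STAT5cKO libraries held 0 or 1 count.

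Dendritic cells are a known source of CCL17 and CCL22. Of 8 dendritic cell markers 4 were tested. Of these, Batf3 and Kit were called between the genotypes with rmGM-CSF, both lower in STAT5cKO, where 6.24% of all tested genes were lower. The summed level of all 8 was 71.3 to 81.6 normalised CPM in STAT5fl/fl with rmGM-CSF against 37.9 to 43.6 in STAT5cKO. With DMEM the sums were already apart, at 35.01 to 45.79 in STAT5fl/fl against 29.12 to 34.53 in STAT5cKO. With 4T1 CM they overlapped, at 51.48 to 62.55 against 40.41 to 53.58. Batf3, a transcription factor of conventional dendritic cells, was at 6.58 ± 0.772 (SD, n = 2) against 0.445 ± 0.159 (n = 3), a log2 difference of -3.83 (SE 0.27, adjusted p = 1.82e-08). Batf3 passed the low-count filter through the STAT5fl/fl libraries with rmGM-CSF, where it was high, so its call is not taken as separate evidence of a difference. Kit was lower in STAT5cKO under all treatments, DMEM included, and rmGM-CSF did not raise it in STAT5fl/fl (0.26, SE 0.24, adjusted p = 0.429). With rmGM-CSF neither Zbtb46 (-0.11, SE 0.30, adjusted p = 0.858) nor Itgax (-0.48, SE 0.16, adjusted p = 0.0468) was called between the genotypes. The defining marker Flt3 had at most 4 counts and Xcr1 at most 1 in any library. The part of these cells in the values of Ccl17 and Ccl22 was not tested.

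Of the receptors of the 3 chemokines, Ccr4 was almost silent, at no more than 2 counts in any library, while Ccr3 was expressed. In the same list the receptor Ccr8 was at 0 counts, and the scavenging receptors Ackr1 and Ackr2 had at most 2. Ccr3, the receptor of CCL24, was the one tested gene of this list of 6. It stood at 2.02 ± 0.170 normalised CPM with DMEM and 9.24 ± 0.934 with rmGM-CSF in STAT5fl/fl (SD, n = 2), a log2 change of 2.19 (SE 0.35, adjusted p = 9.42e-05), and 4T1 CM raised it by 2.37 (SE 0.34, adjusted p = 1.88e-05). In STAT5cKO the changes were 1.18 (SE 0.33, adjusted p = 0.00962) and 1.67 (SE 0.30, adjusted p = 0.000175). The genotype difference with rmGM-CSF was -1.04 (SE 0.28, adjusted p = 0.0173) and was not called.

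Among 7 other ligands of the listed receptors, Ccl11 and Ccl26, the other eotaxins, were at 0 in every library, and Ccl1 had 1 count in all. Ccl7, a monocyte chemoattractant that also binds CCR3, had 818 and 1441 counts in STAT5fl/fl with rmGM-CSF and 34, 46 and 40 in STAT5cKO, which is 64.1 ± 18.6 against 2.09 ± 0.445 normalised CPM. Its log2 difference was -4.96 (SE 0.20, adjusted p = 1.05e-11) with rmGM-CSF and -2.17 (SE 0.18, adjusted p = 6.62e-07) with 4T1 CM. With DMEM it had 2 and 3 counts in STAT5fl/fl and 4, 4 and 8 in STAT5cKO. Ccl5, a T cell chemoattractant, had 2632 counts in the 4T1 CM library of STAT5cKO mouse 115 and 79 and 114 in the other two of that group, and was called in no genotype comparison. The library of mouse 115 also held the highest Ccl24 count of the series, 80. Of 6 type 2 cytokines, 5 stayed at 3 counts or fewer and Il4 and Il13 were at 0 in every library.

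The genes of the GM-CSF and IL-4 route to these chemokines were all expressed. With rmGM-CSF against DMEM, 13 of the 15 rose in STAT5fl/fl and 12 in STAT5cKO, where 15.9% and 13.3% of all tested genes rose. With 4T1 CM against DMEM 12 and 13 rose (medians 0.77 and 0.66, all genes 0.02 and 0.01), where 19.2% and 19.3% of all genes did. The median log2 change of the list with rmGM-CSF was 1.08 in STAT5fl/fl and 0.47 in STAT5cKO, beside medians of all genes near 0 (-0.006 and -0.004). Between the genotypes with rmGM-CSF, 8 of the 15 were called, all of them lower in STAT5cKO (median -0.31, all genes 0.00), beside 9.80% of all genes called and 6.24% lower. The count was 5 without mouse 116, and it also fell with either STAT5fl/fl mouse left out. In each of these settings the calls over all genes fell as well. With 4T1 CM 3 were lower and 1 was higher (median 0.03, all genes 0.01), beside 7.70% of all genes called and 3.57% lower. With the compared libraries alone 1 of the 15 was called, where the calls over all genes fell from 1001 to 292. With either STAT5fl/fl mouse left out, fewer of the 15 were called, and calls over all genes fell as well.

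Il4ra, the shared receptor chain for IL-4 and IL-13, had 3341 and 3886 counts in STAT5fl/fl with rmGM-CSF and 1457, 1669 and 1232 in STAT5cKO. The log2 difference was -1.48 (SE 0.08, adjusted p = 4.39e-10), and the interaction with rmGM-CSF against DMEM was -1.46 (SE 0.11, adjusted p = 3.34e-07). With 4T1 CM Il4ra reached 914 ± 40.4 normalised CPM in STAT5fl/fl (SD, n = 2) and 838 ± 70.9 in STAT5cKO (n = 3), and the genotypes were not called apart (-0.13, SE 0.07, adjusted p = 0.284). The 4T1 CM libraries had the highest Il4ra of the series. In STAT5fl/fl, Ccl17 and Ccl22 were lower with 4T1 CM than with rmGM-CSF, and a link to Il4ra was not tested.

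Irf4, the transcription factor of the route to CCL17, was at 22.3 ± 0.807 normalised CPM in unstimulated STAT5fl/fl, 29.3 ± 0.0360 after rmGM-CSF and 6.36 ± 0.123 after 4T1 CM (SD, n = 2). In STAT5cKO it was at 10.9 ± 0.341, 7.11 ± 1.04 and 5.48 ± 1.10 (n = 3). The genotype differences were -1.03 with DMEM (SE 0.12, adjusted p = 4.75e-05), -2.05 with rmGM-CSF (SE 0.12, adjusted p = 2.49e-09) and -0.22 with 4T1 CM (SE 0.16, adjusted p = 0.398). So Irf4 was lower in STAT5cKO before stimulation as well, unlike Ccl22, which was not called with DMEM. Kdm6b, the demethylase, rose with both stimuli in both genotypes and was lower in STAT5cKO with rmGM-CSF (-1.01, SE 0.12, adjusted p = 1.52e-05), while with 4T1 CM the difference was 0.41 (SE 0.12, adjusted p = 0.0329). The receptor chain Csf2rb was lower with rmGM-CSF (-1.21, SE 0.07, adjusted p = 1.92e-09) and with 4T1 CM (-0.61, SE 0.07, adjusted p = 1.85e-05). It shares near-identical sequence with Csf2rb2, which makes the split of reads between them uncertain. The alpha chain Csf2ra (0.00, SE 0.09) and Stat6 (0.15, SE 0.06, adjusted p = 0.0735) were not called with rmGM-CSF. Jak2, Nfkb1 and Nfkb2 had values of -0.31, -0.26 and -0.32 with rmGM-CSF, and each of these calls was lost without mouse 113 (adjusted p 0.0475 to 0.139).

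**Figure D3:**
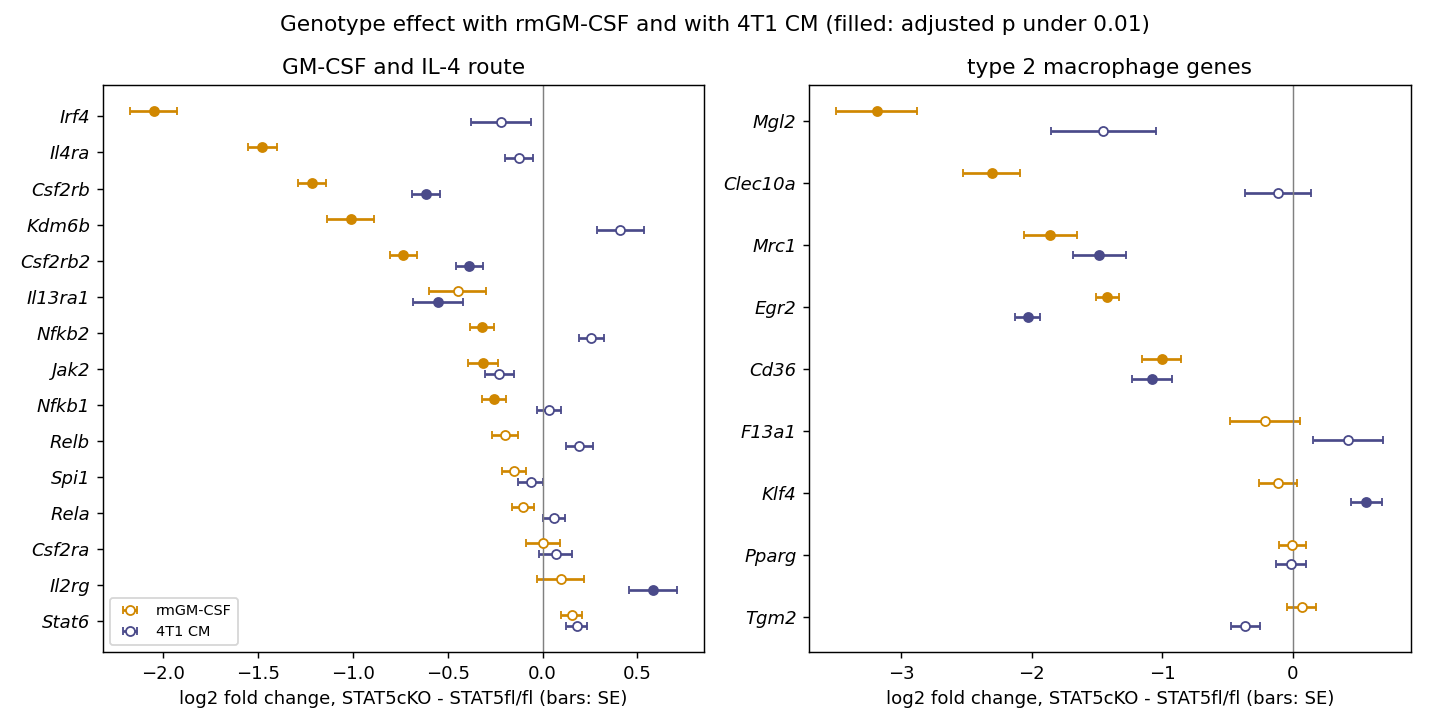
Log2 difference between STAT5cKO and STAT5fl/fl, with SE, for genes of the GM-CSF and IL-4 route (left) and tested type 2 macrophage genes (right), with rmGM-CSF in orange and 4T1 CM in blue and filled points for an adjusted p-value under 0.01. Irf4 and Il4ra lie at -2.05 and -1.48 with rmGM-CSF and at -0.22 and -0.13 with 4T1 CM. Arg1 and Cdh1 are left out because whole groups held 3 counts or fewer.

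Of 16 other genes known from type 2 macrophages, 6 were lower in STAT5cKO with rmGM-CSF, where 6.24% of all tested genes were lower and 9.80% were called. Of the 16 genes 11 were tested, and Retnla and Chil3, which encode RELMα and YM1, were at 0 in every library. None was higher with rmGM-CSF (median of the tested genes -1.42, all genes 0.00). Fewer were called without mouse 113, where the calls over all genes fell as well. With 4T1 CM 4 were lower, namely Mrc1, Egr2, Cd36 and Cdh1, and 1 was higher, the transcription factor Klf4 (0.57, SE 0.12, adjusted p = 0.00405), where 3.57% of all genes were lower and 7.70% were called. The count with 4T1 CM was 3 with the compared libraries alone, where the calls over all genes fell from 1001 to 292. Without mouse 113 it was lower as well, as were the calls over all genes. The 6 lower with rmGM-CSF were Mgl2, Clec10a, Mrc1, Egr2, Cd36 and Cdh1. Clec10a and Mgl2, a pair of galactose-binding lectins, had 412 and 407, and 51 and 59 counts in STAT5fl/fl with rmGM-CSF, against 113, 88 and 78, and 11, 4 and 5 in STAT5cKO. Their log2 differences were -2.31 (SE 0.22, adjusted p = 7.61e-07) and -3.19 (SE 0.31, adjusted p = 9.8e-07). Mgl2 passed the low-count filter through the STAT5fl/fl libraries with rmGM-CSF alone, so its call is not separate evidence of a difference. With 4T1 CM neither was called, at -0.12 (SE 0.25, adjusted p = 0.817) and -1.45 (SE 0.40, adjusted p = 0.0221). Like Ccl22, both rose with rmGM-CSF in STAT5fl/fl, but in STAT5cKO their changes of 0.14 and -0.34 were not called. Mrc1, the mannose receptor, was lower in STAT5cKO under every treatment. Egr2, a transcription factor of IL-4-treated macrophages, was lower with rmGM-CSF (-1.42, SE 0.09, adjusted p = 2.76e-09) and with 4T1 CM (-2.03, SE 0.10, adjusted p = 5.98e-10), and these 2 values were not called apart (adjusted p = 0.0152). Arg1, by contrast, was absent with DMEM and had 52 and 41 counts in STAT5fl/fl and 11, 36 and 4 in STAT5cKO with 4T1 CM. Pparg and Tgm2 were called between the genotypes with neither stimulus.

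Among the 3 tested genes on each side of the chemokine genes, none but Ccl22 and Ccl17 themselves was called between the genotypes with rmGM-CSF. Cx3cl1, which lies between Ccl22 and Ccl17, rose with rmGM-CSF by 2.50 on the log2 scale in STAT5fl/fl (SE 0.19, adjusted p = 1.43e-08) and by 1.77 in STAT5cKO (SE 0.15, adjusted p = 9.96e-08). The Cx3cl1 genotype difference with rmGM-CSF was -0.40 (SE 0.14, adjusted p = 0.0621) and its interaction -0.72 (SE 0.26, adjusted p = 0.163). The other neighbours of Ccl17, Arl2bp, Ciapin1, Coq9 and Polr2c, had values of 0.01 to 0.21, and Rspry1 and Fam192a beyond Ccl22 had -0.16 and -0.06. Around Ccl24, Nsun5, Pom121, Hip1, Rhbdd2, Por and Tmem120a lay between -0.13 and 0.18 with rmGM-CSF, although Hip1 was lower with 4T1 CM (-0.54, SE 0.07, adjusted p = 3.52e-05) and Por with DMEM (-0.36, SE 0.07, adjusted p = 0.00481).

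**Figure D4:**
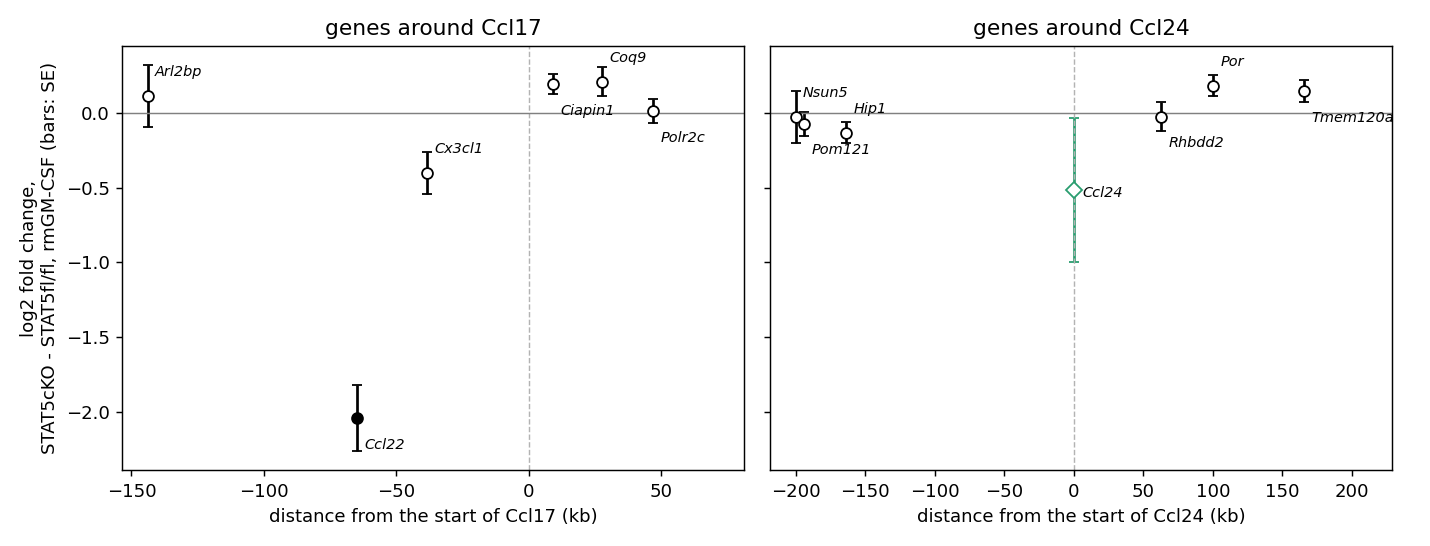
Log2 difference between STAT5cKO and STAT5fl/fl with rmGM-CSF, with SE, against distance in kb, for the 3 tested genes on each side of Ccl17 (left) and of Ccl24 (right), with a filled point for an adjusted p-value under 0.01. Ccl22 lies at -2.04, and every other gene shown, Ccl24 included, lies between -0.52 and 0.21. Ccl17 itself is marked by the dashed line, since its STAT5cKO libraries held 0 or 1 count.

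Over the 15 libraries the levels of Ccl17 and Ccl22 had a Pearson correlation of 0.71 in log2 CPM, and those with Ccl24 were 0.21 for Ccl17 and 0.18 for Ccl22. The libraries share mice and treatments, so these values are descriptions. The 5 genes most like Ccl17 were the predicted gene Gm4847 (r = 0.99), Hnrnpll (0.98), Kif3b (0.97), Mapkapk3 (0.97) and Fchsd2 (0.96). Gm4847 had the same shape at a lower level, with 33 to 39 counts in STAT5fl/fl with rmGM-CSF, 11 to 13 with 4T1 CM, and at most 1 in any other library. Among those most like Ccl22 were Pstpip2, Akna, Susd6 and Psmb6 (r = 0.93 to 0.94), and those most like Ccl24 were Nrd1, Arpc3, Pdha1, Tarm1 and Pcgf5 (0.94 to 0.95). None of the genes named here stayed among the 5 most like when ranks replaced values.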

How the data were processed

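Stranded RNA-seq libraries of BMDMs were compared by genotype and treatment. The authors trimmed reads with Trimmomatic 0.33, aligned them to GRCm38 with HISAT2 2.1.0 and counted fragments per gene with featureCounts 1.6.2 (both ends mapped, mapping quality of at least 10, strand of the gene). The deposited counts are whole numbers without normalization. The other deposited column used here holds the summed exon length in bp. Reads of near-identical genes may be lost by the mapping filter.

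The 13005 genes that exceeded a CPM of 1 in 2 or more libraries were normalised by relative log expression, and fitted with 6 group means in edgeR 4.0.16 (R 4.3.3; quasi-likelihood F test). P-values were adjusted by Benjamini-Hochberg over all tested genes in each comparison. Fold changes against groups at 0 were computed against 3 counts per library. The SE of a log2 change was derived from its F statistic. The 95% intervals of log2 changes came from this SE and the total degrees of freedom of the test, residual plus prior. Libraries of a genotype were taken as separate mice by the number in their labels, and replicate counts differed beyond sampling noise (chi-square per degree of freedom at least 4.49). Same-numbered libraries are taken as one mouse, and their deviations from group means correlated by 0.055 to 0.214 over 15 pairs. In STAT5fl/fl groups of 2 libraries the deviations mirror each other, so the pairs of mouse 113 repeat the values of mouse 112. A mouse block could be fitted for treatments but not for genotypes, whose mice differ. Alternatives were TMM, no filter, filterByExpr, the likelihood ratio test, DESeq2 1.42.0, limma 3.58.1 voom with the mouse as a random effect, the libraries of a comparison alone, the block, and omission of each mouse. The legacy quasi-likelihood test was added after seeing the data. The steps were tested on simulated data.

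The members and the 11 gene lists were chosen with earlier results of these data known. The genes named are the 3 chemokine genes, Stat5a and Stat5b, list genes, the 3 tested genes on each side of a member, and the 5 genes with the highest Pearson correlation with it (log2 CPM, prior count 2). A gene of the last kind is not reported here. Promoter windows came from RefSeq (GRCm38.p6). They matched 2 of the 3 genes, and that of Ccl24 is not used here.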

Additional observations from a re-analysis of the deposited data

Results flagged for a closer look

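Among the chemokine genes, the genes of the 11 lists and the neighbouring genes, the following genotype effects differed between treatments in edgeR's interaction test at an adjusted p-value under 0.01, which is what singled them out, and no explanation was tested. Values are differences of log2 fold changes between STAT5cKO and STAT5fl/fl.

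For rmGM-CSF against DMEM the effect was more negative with rmGM-CSF for Ccl22 (-2.60, adjusted p = 0.00417), Ccl7 (-6.01, adjusted p = 0.00257, a fitted value that rests on 2 and 3 counts in STAT5fl/fl with DMEM) and the receptor chains Csf2rb (-1.15, 1.79e-06), Csf2rb2 (-0.61, 0.000953) and Il4ra (-1.46, 3.34e-07). The same held for the transcription factors Irf4 (-1.02, 0.00118), Nfkb2 (-0.63, 0.00038), Relb (-0.50, 0.00535) and Egr2 (-1.05, 6.09e-05), for the lectins Clec10a (-1.88, 0.00245) and Mgl2 (-2.55, 0.00587), and for the dendritic cell marker Batf3 (-3.65, 9.81e-05). Mgl2 passed the low-count filter through the STAT5fl/fl libraries with rmGM-CSF alone. Batf3 also passed it through those libraries, where it was high. For Por, a neighbour of Ccl24, the difference was positive (0.54, 0.00238).

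For 4T1 CM against rmGM-CSF the effect was more positive with 4T1 CM for Ccl22 (2.17, adjusted p = 0.00385), Ccl7 (2.79, 1.93e-05), Csf2rb (0.60, 0.00223), Kdm6b (1.42, 9.28e-05), Irf4 (1.83, 2.85e-05), Il4ra (1.35, 1.08e-06), Nfkb2 (0.58, 0.00117), Clec10a (2.19, 0.000841) and Batf3 (3.37, 0.000633). For 4T1 CM against DMEM it was more negative with 4T1 CM for Csf2rb (-0.55, 0.00641) and Egr2 (-1.66, 8.14e-06). These comparisons share libraries, so a gene that appears more than once is not counted as separate evidence.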

How the results depend on the processing

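Of 431 values recomputed for 32 results of the chemokine genes, 391 kept their direction and side of the threshold, 13 gained a call, 18 lost one and 9 changed sign without being called. The values below are adjusted p-values, and the cause was not tested. The Ccl17 interactions were called by DESeq2 (6.68e-05 with rmGM-CSF, 0.00565 with 4T1 CM) and voom (8.86e-06, 0.000489). Ccl22 with 4T1 CM against DMEM in STAT5fl/fl lost its call with TMM (0.01), voom (0.02) and the compared libraries alone (0.0182), and ranged from 0.00734 to 0.312 with 1 mouse left out. In STAT5cKO it was called without a filter (0.00253), by the likelihood ratio test (0.000911), DESeq2 (0.000767), the compared libraries alone (0.00936), the replicate block (0.000382) and the legacy test chosen after seeing the data (0.0072), with 0.00387 to 0.0628 when 1 mouse was left out. The block also called Ccl22 between the stimuli in STAT5cKO (0.00304) and changed no other call of the chemokine genes. With 1 mouse left out, the Ccl22 interactions ranged from 0.00973 to 0.0366 (rmGM-CSF against DMEM) and 0.00494 to 0.0268 (4T1 CM against rmGM-CSF, 0.0122 with the compared libraries alone), Ccl24 with 4T1 CM against DMEM in STAT5fl/fl from 0.00123 to 0.0944, and against rmGM-CSF in STAT5cKO from 0.0014 to 0.0225. Sign changes with 1 mouse left out were for Ccl22 between genotypes with 4T1 CM (0.532 without mouse 113, 0.855 without 116, range 0.153 to 0.855) and its interaction with 4T1 CM (0.918 without 112, range 0.741 to 0.918). For Ccl24 they were between genotypes with DMEM (0.974 without 112, range 0.751 to 0.974), rmGM-CSF (0.905 without 113, range 0.304 to 0.905) and 4T1 CM (0.909 without 115, range 0.245 to 0.909). The Ccl24 interaction with 4T1 CM against DMEM changed sign with voom (0.997) and without 113 (0.952) or 115 (0.856), range 0.847 to 0.952.

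Over all genes, mouse 113 weighed most: without it the calls between genotypes fell from 324 to 47 (DMEM), 1275 to 546 (rmGM-CSF) and 1001 to 334 (4T1 CM), the interactions from 404 to 134, 165 to 24 and 191 to 79, and the STAT5fl/fl treatment calls from 3704 to 1736, 4867 to 2671 and 3968 to 1696. Without mouse 115 STAT5cKO calls with rmGM-CSF were 1833 in place of 3053. The compared libraries alone gave 292 genotype calls with 4T1 CM and 79 interactions with 4T1 CM against DMEM, DESeq2 gave 342 and 305 interactions with 4T1 CM against DMEM and rmGM-CSF, and the likelihood ratio test gave 608 genotype calls with DMEM. With 2 STAT5fl/fl mice, leaving 1 out leaves a lone library that is assumed to vary like the other groups. Ccl24 had 9 to 80 counts per library, which limits its precision.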
